A study of Mus musculus with 23 samples.

Results

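A list of 10 genes was used to describe the unfolded protein response and the integrated stress response in mouse pancreatic cancer cells grown flat, in collagen or in Matrigel. The list holds Hspa5, Ddit3, Atf4, Xbp1, Trib3, Herpud1, Dnajb9, Sdf2l1, Asns and Chac1, taken by symbol from the table of raw counts. Of the 10, 9 had a row among the 27207 genes of the table and all 9 passed the filter on low counts, as did 11144 genes in all. Ddit3, which encodes the stress factor CHOP, was not analysed here.

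When unfolded proteins build up in the endoplasmic reticulum (ER), 3 kinds of membrane sensor respond. IRE1 (encoded by Ern1 and, in mucous epithelia, Ern2) splices the Xbp1 mRNA, ATF6 is cut to release a transcription factor, and PERK (Eif2ak3) phosphorylates the initiation factor eIF2alpha. XBP1 and ATF6 raise chaperones and ER-associated degradation (ERAD), which sends misfolded proteins to the proteasome. Phosphorylated eIF2alpha lowers general translation but lets ATF4 protein be made, and ATF4 raises amino acid synthesis, transporters and stress genes. Other eIF2alpha kinases, such as GCN2 (Eif2ak4), which senses amino acid shortage, reach ATF4 without ER stress, so this arm is called the integrated stress response. The counts used here come from the 3′ end of each transcript. They show mRNA levels, not Xbp1 splicing, eIF2alpha phosphorylation or ATF4 protein.

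The 23 libraries fell into 6 groups, all grown in high-glucose DMEM with serum. KC cells came from the tumour of 1 mouse of the genotype labelled KC, which carries Ptf1a Cre/+, a pancreatic Cre driver. They were grown in 2D (6 libraries), in Matrigel for 13 days (3), in floating rat tail collagen I gels for 7 days (3), and in the same gels for 13 days in a first batch (5) and a second batch (3). KPC cells came from the tumour of 1 animal of the genotype labelled KPC, which carries Pdx1 Cre/+, another pancreatic Cre driver, and were grown in collagen for 13 days in the second batch (3). KPC therefore differs from KC in its alleles, in the Cre driver and in the animal, which cannot be told apart. All other groups belong to the first batch. The 2D cells were lysed on the dish, whereas organoids were first freed from the gel with collagenase. The study calls the replicates of Matrigel and of first-batch collagen at days 7 and 13 independent or individual experiments. For the RNA of 2D, second-batch KC and KPC its main text does not say. Each group holds 1 cell line, so errors describe spread between libraries and not between tumours.

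Total counts ranged from 1221451 to 2471058 per library. The 2D libraries split: replicates 1 to 3 stood apart from replicates 4 to 6, with correlations of 0.956 to 0.978 within and 0.870 to 0.895 between the subsets over the 500 most variable genes. Ribosomal protein genes took 21.5% to 22.5% of counts in 2D replicates 1 to 3, against 11.9% to 13.0% in replicates 4 to 6. Mitochondrial counts split likewise (4.99% to 5.76% against 2.51% to 3.01%), as did the share of the 50 most counted genes (29.7% to 30.5% against 19.6% to 19.8%), TMM factors (0.74 to 0.77 against 1.04 to 1.06) and totals (at most 1382736 against at least 1649327). The 2D differences of the members and the counts of the lists are therefore given with and without replicates 1 to 3. Values of single list genes in 2D are from all 6 libraries. Epithelial markers summed to between 7082 and 13965 CPM (counts scaled to a common library size) in all libraries. Fibroblast markers summed to at most 188 CPM, leukocyte markers to at most 37.9, endothelial markers to at most 31.0 and acinar markers to at most 22.6. In bulk RNA, fewer cells of a type and less RNA per cell cannot be told apart.

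The members can be ordered by role. Xbp1 is the transcription factor of the IRE1 arm. Hspa5 (BiP) is the main ER chaperone, Dnajb9 (ERdj4) is a co-chaperone of BiP, and Sdf2l1 works in a complex with ERdj proteins. Herpud1 is an ER membrane protein of ERAD. Atf4 is the transcription factor of the integrated stress response, and Asns (asparagine synthetase), Trib3 (a pseudokinase that dampens ATF4) and Chac1 (a glutathione-degrading enzyme) are among its known targets. In the GENCODE annotation of GRCm38 all 9 are protein-coding genes. On the plus strand lie Xbp1 (chr11:5520659-5525893), Hspa5 (chr2:34771970-34777547), Herpud1 (chr8:94386438-94395377), Atf4 (chr15:80255184-80257541) and Chac1 (chr2:119351229-119354381). On the minus strand lie Dnajb9 (chr12:44205559-44210326), Sdf2l1 (chr16:17130138-17132383), Asns (chr6:7675169-7693254) and Trib3 (chr2:152337422-152344032).

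Because some members of an arm moved together below, the 250 bases before the RefSeq start of each member were read (GRCm38.p6). The full ER stress response element, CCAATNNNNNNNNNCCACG, was found on either strand in 1 of the 9 measured members, Hspa5, and in 0.113% of 32851 promoters. Its shorter end site CCACG, which also lies inside the full element, was found in 7 of them and in 28.3% of all promoters. The C/EBP-ATF response element TGATGNAA, to which ATF4 dimers bind, was found in 3 members (Herpud1, Asns and Chac1) and in 3.45% of all promoters. The XBP1 element TGACGTGG and the cAMP response element TGACGTCA were found in 0 members and in 0.563% and 1.55% of promoters. The windows of Xbp1 and Trib3 held none of these letters. No other motifs were searched for, in Herpud1 or any other member. The 4 windows below carry the full element or the C/EBP-ATF element. Capitals mark CCACG, the CCAAT that belongs to the full element, and the C/EBP-ATF element on either strand. Other CCAAT letters are left in lower case.
Hspa5 (chr2:34771840-34772089, plus strand): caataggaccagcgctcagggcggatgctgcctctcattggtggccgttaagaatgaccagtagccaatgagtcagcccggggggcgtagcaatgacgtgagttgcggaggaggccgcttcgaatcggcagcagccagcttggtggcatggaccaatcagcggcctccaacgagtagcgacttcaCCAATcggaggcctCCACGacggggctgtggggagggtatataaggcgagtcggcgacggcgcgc
Herpud1 (chr8:94386179-94386428, plus strand): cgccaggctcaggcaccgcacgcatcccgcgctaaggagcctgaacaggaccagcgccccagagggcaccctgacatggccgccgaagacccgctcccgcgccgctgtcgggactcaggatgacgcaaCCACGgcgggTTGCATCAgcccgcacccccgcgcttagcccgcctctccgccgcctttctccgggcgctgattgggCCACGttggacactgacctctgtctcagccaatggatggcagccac
Asns (chr6:7693210-7693459, minus strand): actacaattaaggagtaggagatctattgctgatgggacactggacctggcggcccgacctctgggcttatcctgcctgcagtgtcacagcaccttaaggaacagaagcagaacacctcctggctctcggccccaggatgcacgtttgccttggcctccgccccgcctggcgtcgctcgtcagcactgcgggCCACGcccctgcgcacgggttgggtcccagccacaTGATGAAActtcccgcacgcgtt
Chac1 (chr2:119350992-119351241, plus strand): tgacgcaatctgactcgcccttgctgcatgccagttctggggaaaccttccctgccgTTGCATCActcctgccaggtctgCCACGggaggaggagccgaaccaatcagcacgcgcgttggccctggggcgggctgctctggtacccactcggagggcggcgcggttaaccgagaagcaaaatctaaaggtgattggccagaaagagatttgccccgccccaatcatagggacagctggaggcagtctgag
These matches describe the letters and do not show that a factor was bound in these cells.

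**Figure D1:**
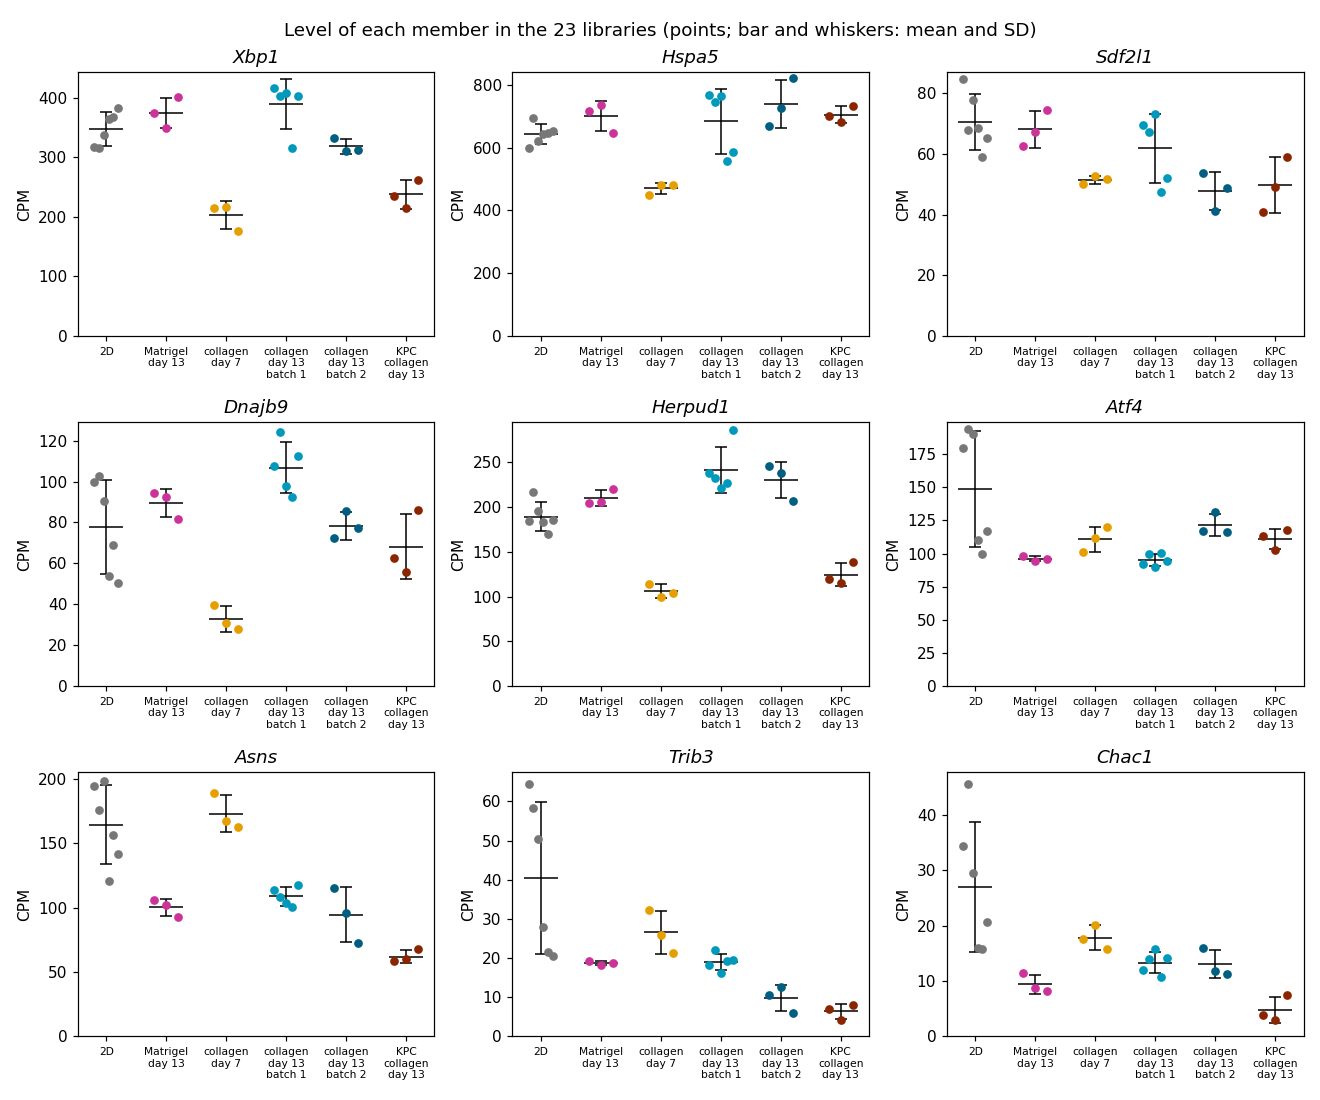
Level of each measured member in the 23 libraries, in TMM-normalised CPM on a linear axis that starts at 0. Each point is 1 library, and the bar and whiskers are the mean and SD of the group. Xbp1, Herpud1 and Dnajb9 are lowest in collagen at day 7, where Asns is highest on average, and 2D replicates 1 to 3 are the high points for Atf4, Trib3 and Chac1.

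Over the 6 groups the widest range of mean CPM was that of Trib3, 6.35-fold from KPC (6.38 CPM) to 2D (40.5 CPM), followed by Chac1 at 5.70-fold and Dnajb9 at 3.26-fold. Sdf2l1 had the narrowest range, 1.48-fold. With 2D replicates 1 to 3 left out, 2D averaged 23.4 CPM for Trib3 and 17.5 CPM for Chac1, day 7 became the highest group for both, and their ranges were 4.16-fold and 3.77-fold. Collagen at day 7 was the lowest group for Hspa5, Xbp1, Herpud1 and Dnajb9, and KPC was the lowest for Asns, Trib3 and Chac1. The lowest group did not overlap with its nearest neighbour for Hspa5 (day 7 below 2D), Dnajb9 and Herpud1 (day 7 below KPC), Asns (KPC below KC of its batch) and Chac1 (KPC below Matrigel). For Xbp1, Trib3, Sdf2l1 and Atf4 it did. Over all genes 32.3% did not overlap between 2D and day 7, and 37.3% between KPC and KC of its batch. For day 7 against KPC and KPC against Matrigel no such share was computed, and both pairs cross batch and genotype.

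The comparison of day 7 with day 13 asks how the pathway stood at an earlier and a later stage of organoid growth in collagen. At day 7 Hspa5, Xbp1, Herpud1 and Dnajb9 were lower and Asns was higher. Of the 9 members, 4 were lower and 1 was higher at an adjusted p under 0.1 (edgeR quasi-likelihood test, Benjamini-Hochberg), called changed from here on. Over all genes 55.1% were called in this comparison, 28.1% higher and 27.1% lower, so 5 of 9 is near the background, and 6 of 9 without overlap compares with 48.3% of all genes.

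Dnajb9 stood at 39.7, 31.0 and 27.7 CPM at day 7 and at 108, 124, 97.6, 92.3 and 112 CPM at day 13. Every day 7 library was below every day 13 library. The mean was 32.8 ± 6.21 CPM (SD, n = 3) against 107 ± 12.6 CPM (SD, n = 5), a log2 fold change of -1.71 ± 0.21 (SE; adjusted p = 1.99e-07).

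Herpud1 measured 114, 99.2 and 104 CPM at day 7 against 239, 233, 221, 227 and 286 CPM at day 13, with no overlap. Its log2 fold change was -1.19 ± 0.11 (adjusted p = 4.65e-09). Xbp1 measured 216, 217 and 176 CPM at day 7. At day 13 it measured 417, 403, 408, 315 and 402 CPM, and the low value belongs to replicate 4. The groups did not overlap, and the log2 fold change of Xbp1 was -0.94 ± 0.12 (adjusted p = 3.23e-07).

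Hspa5 was lower at day 7 by less. It read 449, 481 and 481 CPM at day 7 and 767, 744, 764, 558 and 584 CPM at day 13, a log2 fold change of -0.54 ± 0.12 (adjusted p = 0.00051). Replicates 4 and 5 of day 13 were the low ones, as they were for Sdf2l1, which read 47.5 and 52.0 CPM in them and 67.1 to 73.2 CPM in the other three. Sdf2l1 at day 7 lay between 50.01 and 52.7 CPM, inside the day 13 range, and did not pass (log2 fold change -0.27 ± 0.15, adjusted p = 0.143). It passed as lower without day 13 replicate 4 (adjusted p = 0.0493) or replicate 5 (0.0993), and when only genes with 10 counts in every library were kept (0.0988).

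On the ATF4 side, Asns stood at 189, 167 and 162 CPM at day 7 against 114, 108, 104, 100 and 118 CPM at day 13. The groups did not overlap, and the log2 fold change was 0.67 ± 0.14 (adjusted p = 0.000295). Atf4 itself was at 101 to 120 CPM against 89.5 to 100 CPM, a difference that did not pass (0.22 ± 0.17 on the log2 scale, adjusted p = 0.286). Trib3 (log2 fold change 0.47 ± 0.29, adjusted p = 0.18) and Chac1 (0.43 ± 0.27, adjusted p = 0.207) overlapped between days. The 95% intervals of these log2 fold changes ran from -0.10 to 0.55 for Atf4, -0.09 to 1.04 for Trib3 and -0.11 to 0.96 for Chac1. In a fit of these 2 groups alone Trib3 and Chac1 passed as higher, at adjusted p = 0.0391 and 0.09. With the replicate number added to the fit, Trib3 (0.22), Chac1 (0.16) and Atf4 (0.056) were nearer 0 and did not pass. DESeq2 did not call them either.

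**Figure D2:**
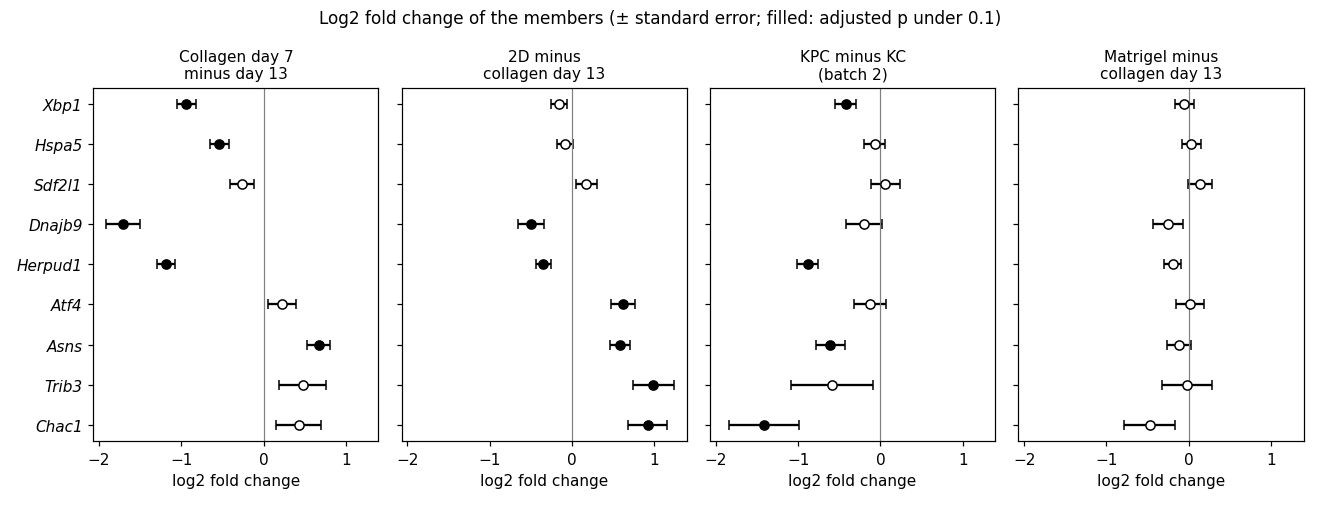
Log2 fold change (x axis) of each member in 4 comparisons, with whiskers of 1 standard error. Filled points passed an adjusted p of 0.1 and open points did not. In the day 7 comparison Dnajb9 (-1.71), Herpud1 (-1.19), Xbp1 (-0.94) and Hspa5 (-0.54) lie left of 0 and Asns (0.67) lies right, and no point is filled for Matrigel.

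The other genes of the pathway, in lists of known members, also divided between the days. Of 30 ER chaperones and folding enzymes tested, 20 were lower and 1 was higher at day 7, with a median log2 fold change of -0.54 against 0.01 over all genes. Agr2, a disulfide isomerase of mucin-making cells, was at 13.7 ± 4.73 CPM at day 7 and 134 ± 37.7 CPM at day 13 (log2 fold change -3.28 ± 0.34). Sdf2, a relative of Sdf2l1, had a log2 fold change of -1.30 ± 0.25, and the cyclophilin Ppib was the 1 gene that was higher (0.30 ± 0.11). Several chaperones that the ER stress response raises did not pass: Hyou1 (0.26), Creld2 (0.13), Calr (0.10), Manf (0.08) and Dnajb11 (-0.15). These 5 were named after their values were seen.

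Of 27 ERAD genes, 14 were lower and 6 higher at day 7, and the median log2 fold change was -0.27. Os9, a lectin that delivers glycoproteins to the ERAD ligase, was at 73.9 ± 2.01 CPM against 254 ± 39.4 CPM (log2 fold change -1.78 ± 0.16), and Erlec1, another such lectin, had -1.36 ± 0.15. The ubiquitin-conjugating enzyme Ube2j2 (0.62 ± 0.12) and the VCP cofactor Nploc4 (0.57 ± 0.15) were higher. Among 39 genes of ER translocation and early secretion, 12 were lower and 5 higher, a smaller share called than the 55.1% over all genes, with Arfgap3 at -1.60 ± 0.15 and Sec31a at 0.58 ± 0.13 on the log2 scale.

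Of 13 sensors and eIF2alpha kinases, 7 passed, and those 7 were lower at day 7. The share called was near the 55.1% over all genes, where 27.1% were lower. Ern2, the IRE1 form of mucous epithelia, was at 7.78 ± 2.32 CPM at day 7 and 52.5 ± 7.56 CPM at day 13, a log2 fold change of -2.75 ± 0.27. Ern1 was lower too (-0.76 ± 0.27, adjusted p = 0.0241), as was Atf6 (-0.42 ± 0.19, adjusted p = 0.0799). Eif2ak3, which encodes PERK, was at 8.96 and 9.43 CPM and did not pass (adjusted p = 0.831).

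Genes that ATF4 raises in amino acid supply went the other way. Of 24 genes of amino acid synthesis and transport, 17 were higher and 2 lower at day 7, and the median log2 fold change was 0.66. Phgdh, which starts serine synthesis, was at 174 ± 20.6 CPM against 31.1 ± 6.001 CPM (2.48 ± 0.16 on the log2 scale), and Slc7a5, a transporter of large amino acids, had 2.34 ± 0.16. Of 13 genes of tRNA charging, 11 were higher and 1 lower, with a median of 0.78. Iars was at 1.19 ± 0.14, while Wars was the 1 that was lower (-0.84 ± 0.14). Among 14 genes of eIF2, its exchange factor and its phosphatase, 7 were higher and 1, the phosphatase subunit Ppp1r15a (GADD34), was lower (-0.47 ± 0.17). The share of these 14 that was called was near the 55.1% over all genes, where 28.1% were higher.

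The remaining ATF4-linked genes did not follow. Of 25 partners, feedback genes and stress targets, 5 were higher and 13 lower at day 7, with a median of -0.32. Jdp2 (1.98 ± 0.24) and Gdf15 (1.68 ± 0.20) were higher. Txnip, an inhibitor of glucose uptake, was lower at 33.6 ± 0.265 CPM against 228 ± 69.2 CPM (-2.76 ± 0.23), and Vldlr was lower at -1.86 ± 0.15. Ribosomal protein genes took 10.997% to 11.98% of counts at day 7 and 7.27% to 9.45% at day 13, and their part in these differences was not tested.

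**Figure D3:**
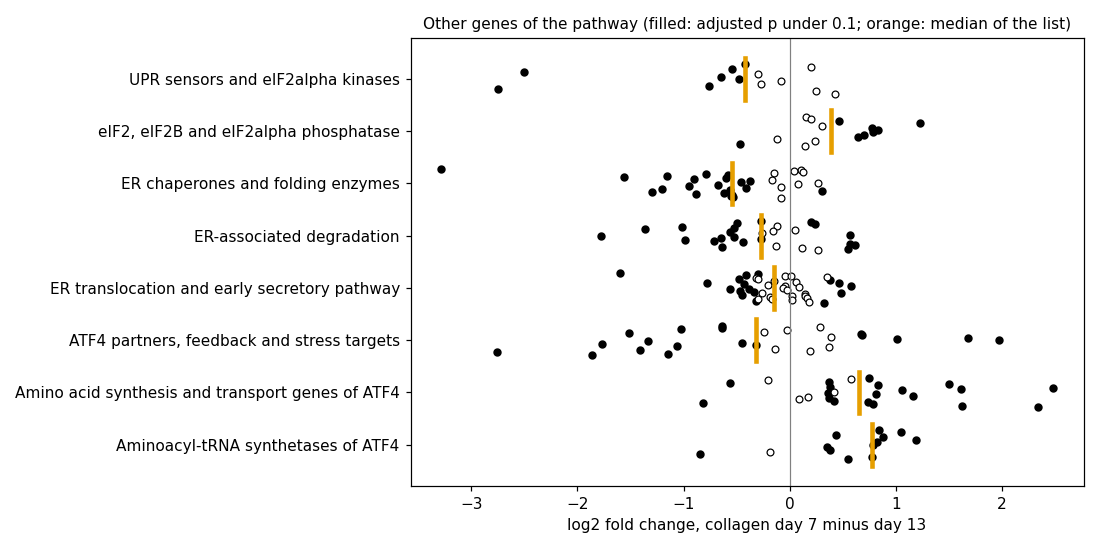
Log2 fold change of collagen day 7 minus day 13 (x axis) for each tested gene of 8 pathway lists (rows); filled points passed an adjusted p of 0.1 and the orange bar is the median of the list. The medians of ER chaperones (-0.54) and ERAD (-0.27) lie left of 0 and those of amino acid genes (0.66) and tRNA charging (0.78) lie right.

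Comparing KPC with KC in collagen at day 13, within the second batch, asks how the second tumour genotype differs. Asns, Chac1, Herpud1 and Xbp1 were lower in KPC, and no other member passed by edgeR, by DESeq2 or at an unadjusted p of 0.05. Over all genes 19.9% were called, 9.58% higher and 10.4% lower, against 4 of 9 members. Groups did not overlap for 4 of 9 members, against 37.3% of all genes.

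Herpud1 read 120, 115 and 139 CPM in KPC against 246, 238 and 207 CPM in KC. That is 125 ± 12.6 CPM against 230 ± 20.5 CPM (SD, n = 3 each), a log2 fold change of -0.89 ± 0.12 (adjusted p = 1.54e-05). Chac1 read 3.83, 2.99 and 7.39 CPM in KPC, from 6, 5 and 14 counts, against 15.9, 11.9 and 11.3 CPM in KC. Its log2 fold change was -1.41 ± 0.43 (adjusted p = 0.0247), and with so few counts its size is loosely held (95% interval -2.25 to -0.58).

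Asns stood at 58.1, 59.9 and 67.6 CPM in KPC and at 115, 95.5 and 72.6 CPM in KC, so the nearest libraries were close. The log2 fold change was -0.61 ± 0.17 (adjusted p = 0.0172). Xbp1 stood at 235, 215 and 263 CPM against 333, 311 and 313 CPM, with a log2 fold change of -0.42 ± 0.13 (adjusted p = 0.0257). It did not pass when libraries were scaled by their total alone (-0.30, adjusted p = 0.327).

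Hspa5 did not pass, at 682 to 734 CPM in KPC and 670 to 822 CPM in KC, and the 95% interval of the log2 fold change ran from -0.32 to 0.19. Sdf2l1 (0.06 ± 0.18), Dnajb9 (-0.20 ± 0.22) and Atf4 (-0.13 ± 0.19) did not pass. Trib3 was at 7.03, 4.19 and 7.92 CPM in KPC and 10.6, 12.6 and 5.998 CPM in KC, which overlapped (-0.59 ± 0.50, adjusted p = 0.497). Without KC replicate 1, the one highest in Asns and Chac1, Asns and Chac1 lost their calls and 2 members were left. Without KPC replicate 2, the lowest for Chac1 and Xbp1, those members lost theirs, which also left 2.

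Of the 25 ATF4 partners and stress targets, 10 passed, and those were lower in KPC, with a median log2 fold change of -0.29. Atf3, an ATF4 partner, was at 47.0 ± 4.32 CPM against 145 ± 19.8 CPM (-1.62 ± 0.29), and Txnip had -1.11 ± 0.22. Amino acid genes were divided, 4 higher and 3 lower: the transporter Slc38a1 was at 30.5 ± 5.27 CPM against 1.99 ± 1.99 CPM (3.88 ± 0.46), and the cystine transporter Slc7a11 was lower (-1.72 ± 0.36). Of the 30 chaperones 7 were lower and 1 higher, led by the ER oxidase Ero1l (-2.28 ± 0.20). Of the 13 sensors and eIF2alpha kinases 1 was higher and 1, Atf6, was lower (-0.91 ± 0.22, adjusted p = 0.00478), with a median of 0.048. Atf3 also belongs with early response genes, of which 12 of 20 were lower and 2 higher in KPC (Egr1 -1.12 ± 0.21). Their part in these differences was not tested. KC of the second batch was itself higher than KC of the first in Atf3 and Atf6. The same held for 12 of 20 early response genes, with 1 lower. Atf3 in KPC lay near its level in first-batch KC (48.4 ± 12.7 CPM). Atf6 in KPC lay within the range of first-batch KC (16.7 to 31.8 CPM). KPC against first-batch KC alone crosses batches and was not tested.

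The 2D comparisons ask how flat culture differs from organoids of the same cells. Against collagen at day 13, Atf4, Trib3, Asns and Chac1 were higher in 2D, and Herpud1 and Dnajb9 were lower. Over all genes 49.6% were called, 26.3% higher and 23.3% lower, against 6 of 9 members, and 3 members did not overlap against 20.3% of all genes.

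These higher values lie mainly in 2D replicates 1 to 3. Atf4 read 179, 194 and 190 CPM in replicates 1 to 3 and 110, 99.9 and 117 CPM in replicates 4 to 6, against 89.5 to 100 CPM in collagen. Trib3 read 64.4, 58.2 and 50.3 CPM and then 27.9, 21.6 and 20.6 CPM, against 16.3 to 22.1 CPM in collagen. Chac1 read 34.4, 45.6 and 29.6 CPM and then 16.0, 15.8 and 20.6 CPM, against 10.7 to 15.8 CPM.

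With all 6 libraries the log2 fold changes were 0.62 ± 0.14 for Atf4 (adjusted p = 0.0011), 0.99 ± 0.25 for Trib3 (adjusted p = 0.00245) and 0.92 ± 0.24 for Chac1 (adjusted p = 0.00301). Without replicates 1 to 3 they were 0.16, 0.28 and 0.35, and none of the 3 passed (edgeR, adjusted p = 0.192, 0.268 and 0.198). The number of members called then fell to 3. Without replicates 4 to 6 they were 1.002, 1.61 and 1.48. The share of ribosomal protein counts moved with these values, and its part in them was not tested.

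Asns was higher in 2D in both subsets. It read 194, 176 and 198 CPM in replicates 1 to 3 and 121, 157 and 141 CPM in replicates 4 to 6, all above the collagen range of 100 to 118 CPM. Its log2 fold change was 0.58 ± 0.12 (adjusted p = 0.000413), and 0.33 without replicates 1 to 3 (adjusted p = 0.0187). Of the amino acid genes, 14 of 24 were higher and 3 lower in 2D. Phgdh was at 119 ± 23.4 CPM against 31.1 ± 6.001 CPM (1.92 ± 0.15), and Psat1, the next enzyme of serine synthesis, had 1.06 ± 0.12. Without replicates 1 to 3, 11 were higher and 1 lower.

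Herpud1 lay between 169 and 217 CPM in 2D (median 185) and between 221 and 286 CPM in collagen, without overlap. The log2 fold change was -0.35 ± 0.09 (adjusted p = 0.00294), and -0.46 without replicates 1 to 3. Dnajb9 differed between the 2D subsets as well. It read 99.9, 103 and 90.7 CPM in replicates 1 to 3, within reach of collagen (92.3 to 124 CPM), and 53.9, 69.1 and 50.6 CPM in replicates 4 to 6. Its log2 fold change was -0.49 ± 0.16 (adjusted p = 0.0146), -0.91 without replicates 1 to 3 and -0.11 without replicates 4 to 6 (adjusted p = 0.537).

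Hspa5 (599 to 695 CPM in 2D), Xbp1 (315 to 383 CPM) and Sdf2l1 (59.1 to 84.8 CPM) overlapped with collagen at day 13 and did not pass, with or without replicates 1 to 3. Without replicates 4 to 6, Xbp1 was lower (-0.25, adjusted p = 0.0343) and Sdf2l1 higher (0.33, adjusted p = 0.0574) in 2D. Scaled by library total alone, Hspa5 (-0.31, adjusted p = 0.047) and Xbp1 (-0.37, adjusted p = 0.0297) passed as lower. Over all genes 49.6% were called, 26.3% higher and 23.3% lower, and the shares of ERAD genes and chaperones called were near 49.6%. Of the 27 ERAD genes 13 were lower in 2D and 1 higher, with Os9 at -0.74 ± 0.12. Of the chaperones 10 were lower and 4 higher, with Ero1l at -1.01 ± 0.15. Without replicates 1 to 3 these counts were 11 lower for ERAD, with no gene higher, and 7 lower and 3 higher for chaperones. Early response genes were lower in 2D in 14 of 20 cases (Fosb -2.37 ± 0.28) and higher in 4, and in 14 and 2 without replicates 1 to 3. The 2 forms of culture also differed in collagenase treatment, which cannot be told apart from the culture.

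Against collagen at day 7, 6 of 9 members passed, all 6 higher in 2D (edgeR and DESeq2), where 51.2% of all genes were called and 26.4% were higher. Groups did not overlap for 5 members, against 32.3% of all genes. The log2 fold changes were 1.21 ± 0.21 for Dnajb9 (adjusted p = 4.52e-05), 0.84 ± 0.11 for Herpud1, 0.78 ± 0.11 for Xbp1, 0.45 ± 0.12 for Hspa5 and 0.44 ± 0.15 for Sdf2l1. These 5 passed without replicates 1 to 3 as well, at 0.86, 0.79, 0.90, 0.48 and 0.34. Scaled by library total alone, Hspa5 (0.28, adjusted p = 0.135) and Sdf2l1 (0.26, adjusted p = 0.182) did not pass.

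Atf4 was the sixth (0.40 ± 0.16, adjusted p = 0.052), and its difference was -0.0040 without replicates 1 to 3 (adjusted p = 0.981). It did not pass either when scaled by library total alone (0.18, adjusted p = 0.253). Asns did not pass (-0.08 ± 0.14), with a 95% interval of -0.35 to 0.18 on the log2 scale. Without replicates 1 to 3 it was lower in 2D (-0.29, adjusted p = 0.0517), as it was when scaled by library total alone (-0.28, adjusted p = 0.0706). Trib3 (0.52 ± 0.27, adjusted p = 0.13) and Chac1 (0.49 ± 0.26, adjusted p = 0.127) did not pass, and their differences were -0.14 and -0.025 without replicates 1 to 3. Both passed without replicates 4 to 6, at 1.13 and 1.04. Of the tRNA charging genes 11 of 13 were lower in 2D than at day 7 and 1 higher, where 24.8% of all genes were lower. Of the chaperones 14 of 30 were higher and 1 lower, and of the secretory genes 18 of 39 were higher and 1 lower. Both lists were called at a share near the 51.2% over all genes, where 26.4% were higher. Without replicates 1 to 3, 9 tRNA charging genes were lower and 1 higher, 18 chaperones were higher with none lower, and 18 secretory genes were higher and 5 lower.

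The Matrigel comparison asks whether the gel changed the pathway at day 13, and here 0 of 9 members were called by edgeR, against 12.9% of all genes (6.62% higher and 6.29% lower). No member had an unadjusted p under 0.05, and DESeq2 also called 0. Herpud1 came nearest, at 204, 206 and 221 CPM in Matrigel against 221 to 286 CPM in collagen (log2 fold change -0.20 ± 0.11, adjusted p = 0.302). It was the 1 member without overlap, against 19.5% of all genes. The 95% intervals of the log2 fold changes were -0.19 to 0.26 for Hspa5, -0.27 to 0.17 for Xbp1 and -0.31 to 0.35 for Atf4. For Chac1, at 8.16 to 11.4 CPM against 10.7 to 15.8 CPM, the interval was wider, -1.08 to 0.13. The other members had log2 fold changes of -0.25 ± 0.19 (Dnajb9), 0.13 ± 0.14 (Sdf2l1), -0.12 ± 0.15 (Asns) and -0.02 ± 0.30 (Trib3).

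Few other genes of the pathway passed, and the share of chaperones that did was near that of all genes. The median log2 fold change of secretory genes was -0.15, with 3 of 39 above 0, against -0.0053 over all genes. ERAD genes (-0.14, 6 of 27 above 0) and eIF2 genes (-0.16, 2 of 14) lay on the same side. Stress targets (4.1e-05, 13 of 25) and tRNA charging genes (0.018, 7 of 13) lay near 0. Ern2 (-0.57 ± 0.22) and Ppp1r15a (-0.44 ± 0.17) did not pass, though the gels did not overlap. Ern1 (0.38), Eif2ak3 (0.26) and Atf6 (0.16) did not pass and overlapped. Of the 30 chaperones 4 passed and were lower in Matrigel, led by Agr2 (-0.84 ± 0.27), and of the ERAD genes 5 passed and were lower, led by Selenos (-0.50 ± 0.13). Atf3 was lower at 10.1 ± 2.73 CPM against 48.4 ± 12.7 CPM (-2.23 ± 0.33). Genes of the pathway that were higher in Matrigel were the ER-anchored factor Creb3l1 (1.37 ± 0.25), Phgdh (0.84 ± 0.18), Iars (0.57 ± 0.14) and Ddit4 (0.52 ± 0.16). Atf3 was lower together with the early response genes, 10 of 20 of which were lower and 2 higher.

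Between batches of KC collagen at day 13, 4 of 9 members were called lower in the second batch, against 18.1% of all genes called lower, 19.3% called higher and 37.3% called in all. They were Trib3 (9.71 ± 3.36 CPM against 19.0 ± 2.12 CPM; log2 fold change -0.97 ± 0.37, adjusted p = 0.0518), Dnajb9 (-0.45 ± 0.19), Sdf2l1 (-0.37 ± 0.16) and Xbp1 (-0.29 ± 0.11). Atf4 (0.35 ± 0.17), Asns (-0.20 ± 0.15), Hspa5 (0.11 ± 0.12), Herpud1 (-0.07 ± 0.11) and Chac1 (-0.03 ± 0.32) did not pass. Groups did not overlap for 3 members, against 35.9% of all genes. At a threshold of 0.05 no member was called by edgeR, and leaving out single libraries left between 0 and 4. In a fit of the 2 groups alone Trib3 (adjusted p = 0.0051), Dnajb9 (0.01) and Xbp1 (0.0347) were lower and below 0.05, as were Trib3 (0.00696), Dnajb9 (0.00951) and Sdf2l1 (0.0241) when scaled by library total alone. Atf4 went the other way and passed as higher in the edgeR fit of the 2 groups alone (0.37, adjusted p = 0.00842). It also passed as higher with 10 counts in every library (0.37, adjusted p = 0.0961). Outside the list, Atf3 (1.58 ± 0.24, adjusted p = 2.09e-05) and Atf6 (0.74 ± 0.18, adjusted p = 0.00313) were higher in the second batch by edgeR. Of 20 early response genes 12 were higher there and 1 lower. Mitochondrial counts made up 5.59% to 6.18% in the second batch and 3.01% to 4.83% in the first, and their part in these differences was not tested. KPC is therefore set against KC of its own batch.

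Across the 23 libraries, log2 CPM of the members is described by Pearson's r, without a test, since libraries of a group share their condition and depth. Trib3 and Asns had r = 0.90, Asns and Chac1 0.89, and Trib3 and Chac1 0.86. Xbp1 and Herpud1 had 0.88, and Herpud1 and Dnajb9 0.82. Other pairs of an arm were lower. Atf4 had 0.45 with Asns, 0.50 with Trib3 and 0.61 with Chac1, and Hspa5 had 0.56 with Xbp1 and 0.18 with Sdf2l1. Among the members Sdf2l1 was nearest to Trib3 (0.61), which belongs to the ATF4 side. All these values include 2D replicates 1 to 3, the highest libraries for Atf4, Trib3 and Chac1. Hspa5 and Asns ran against each other, with r = -0.59. Of all tested genes outside the list, Rps25 and Rps21, both ribosomal proteins, were nearest to Atf4 (r = 0.94 each). Bnip3 (0.96) and Bnip3l (0.94), mitophagy receptors, were nearest to Herpud1. Cd38 (0.94) was nearest to Xbp1, Ormdl3 (0.90) to Dnajb9, Muc1 (0.85) to Hspa5, Mettl2 (0.87) to Sdf2l1, Gm15421 (0.97) to Trib3, and Acer3 to both Asns (0.94) and Chac1 (0.90).

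**Figure D4:**
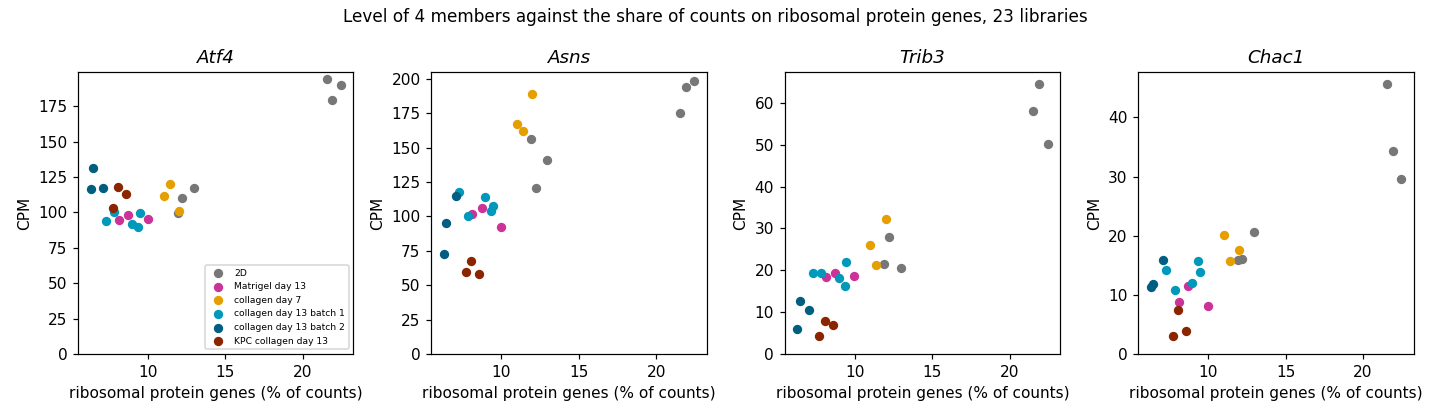
Level of Atf4, Asns, Trib3 and Chac1 in CPM (y axes, from 0) against the percent of counts on ribosomal protein genes (x axes) in the 23 libraries, coloured by group. The 3 points at the right, 21.5% to 22.5%, are 2D replicates 1 to 3, which are the highest for Atf4, Trib3 and Chac1.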

How the data were processed

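Bulk RNA was measured in 23 libraries with oligo-dT primers, molecular barcodes (UMIs) and sequencing of the 3′ end. The authors made the deposited counts, whole UMI counts per gene, with the Drop-seq pipeline on GRCm38, the build named per the labels, and GENCODE genes. The values were not normalized. Whether counting used strand is not given in the sources used here. Herpud1 overlaps the antisense gene Gm15890, and Dnajb9 overlaps Mir5627 on the other strand.

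From the counts, edgeR 4.0.16 (R 4.3.3) kept 11144 genes by its expression filter, scaled by TMM, and tested 6 contrasts of groups in 1 quasi-likelihood fit of all 23 libraries, with Benjamini-Hochberg adjustment over all genes and a threshold of 0.1. CPM are counts scaled to a common library size with TMM, and log2 CPM used a prior count of 2. Of the contrasts, 4 share the collagen day 13 libraries of the first batch. SE are of log2 fold changes, and 95% intervals take 1.96 SE. In data simulated for the Matrigel comparison with 11144 genes, 29.9% of 67 changes of 1.5-fold and 80.6% of 67 changes of 2-fold were called. False calls numbered 12. Far fewer genes were changed there than the 1439 called in the data, and all were above a minimum mean level. These shares therefore need not hold in the data.

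Members and lists were chosen with earlier results of these data known. All 9 members are named in each comparison, and from each list up to 2 genes that were higher and 2 that were lower by log2 fold change, at 20 CPM or more in the higher group. Likeness took the top genes by Pearson's r of log2 CPM. DESeq2 1.42.0, other scalings and filters, a stricter threshold of 0.05, fits of 2 groups, a replicate block, leaving out libraries and 8 collagen libraries of both batches were alternatives. Leaving out 2D replicates 1 to 3 or 4 to 6 was added after seeing the data. Promoters were read from RefSeq. No libraries were duplicates. The other alleles of the 2 genotypes are not reported here.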

Additional observations from a re-analysis of the deposited data

Results flagged for a closer look

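Xbp1 in collagen at day 13 of the first batch had 1 library far from the others: replicate 4 stood at 315 CPM, and the other 4 lay between 402 and 417 CPM. Its gap exceeded Dixon's 95% critical value, which chance does in about 1 of 20 groups, and 1 of 18 groups of members tested was marked. Without this library the log2 fold change of Xbp1, day 7 against day 13, was -1.01, and it was -0.94 with all libraries.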

How the results depend on the processing

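Scaling by library total alone shifted the median log2 fold change of all genes to 0.13 in KPC, -0.18 in the second batch, -0.14 in 2D against day 7 and -0.20 in 2D against day 13. It gave 654 higher and 300 lower genes for Matrigel (738 and 701 with TMM), 1265 and 598 for KPC (1068 and 1155), 1416 and 2602 for the second batch (2149 and 2013), and 1997 and 3324 (2947 and 2759) and 1692 and 3613 (2934 and 2592) for 2D against days 7 and 13. Called genes in Matrigel went from 1439 to 954 with it and to 952 with 10 counts in every library, and ranged from 901 to 1427 with single libraries left out. Members called in the second batch went from 4 to 2 with DESeq2, its size factors or no filter, to 0 at a threshold of 0.05, and to 0 to 4 with libraries left out. KPC gave 2 to 4 members with libraries left out. It gave 6 against the 8 KC libraries of both batches, with Trib3 at -1.30 and Dnajb9 at -0.50 added. Without 2D replicates 1 to 3, 3 members remained for 2D against day 13. For these counts the cause was not tested. Same-numbered libraries had correlations of -0.12 to 0.19, so numbers do not pair libraries; the replicate block called 0, 6, 4, 5, 8 and 6 members for Matrigel, day 7, KPC, the second batch, and 2D against days 7 and 13, with Sdf2l1 added at day 7 (-0.40) and adjusted p of 0.0036 for Trib3, 0.007 for Sdf2l1 and 0.0086 for Dnajb9 in the second batch.

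Sign changes were as follows, none of them past the threshold after the change. With library totals alone these were Xbp1 at 0.0061 and Trib3 at 0.043 in Matrigel, Hspa5 at 0.053 in KPC and -0.022 in the second batch, and Sdf2l1 at -0.055 in 2D against day 13. With 2 groups alone it was Trib3 at 0.0066 in Matrigel. With the replicate block they were Hspa5 at -0.036, Atf4 at -0.15 and Sdf2l1 at -0.0016 in Matrigel, and Asns at 0.039 in 2D against day 7. With the 8 collagen libraries they were Hspa5 at -0.011, Atf4 at -0.12, Xbp1 at 0.046 and Trib3 at 0.24 in Matrigel, and Hspa5 at 0.0013, Atf4 at 0.087 and Sdf2l1 at -0.19 in KPC. In 2D against day 7, leaving out replicates 1 to 3 gave Atf4 -0.0040 (0.40 and called with all), Trib3 -0.14 (0.52) and Chac1 -0.025 (0.49), and leaving out 4 to 6 gave Asns 0.14. Single omissions gave Matrigel ranges of -0.0064 to 0.047 for Atf4, -0.022 to 0.084 for Hspa5 and -0.068 to 0.040 for Trib3, KPC ranges of -0.14 to 0.0027 for Hspa5 and -0.092 to 0.17 for Sdf2l1, and second-batch ranges of -0.16 to 0.070 for Chac1 and -0.088 to 0.043 for Herpud1.

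Chac1 and Trib3 had 5 to 67 counts per library, which limits the precision of both.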
